A study of Mus musculus with 12 samples.

Results

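Bone marrow-derived macrophages (BMDMs) are primary macrophages grown from mouse bone marrow in culture. The comparison described here set 6 of the 12 libraries of the series against each other, namely the 3 columns of the raw count matrix headed LPS+ tlr4f/f BMDM and the 3 columns headed LPS- tlr4f/f BMDM. They were chosen by these headings alone, and for each gene the transcript row with the highest total was kept. All mice were C57BL/6. The tlr4f/f mice carry loxP sites around part of tlr4 on both alleles and make the receptor, and the tlr4f/f-lysM-cre mice also carry Cre driven by the lysozyme M promoter, which deletes tlr4 in myeloid cells. By the labels, all BMDMs were grown with 50 ng/mL of M-CSF for 7 days, and those headed LPS+ then received 1 µg/mL of lipopolysaccharide (LPS) for 6 h. The age and sex of the mice that gave the marrow, and whether the 3 libraries of a group came from separate mice or cultures, are not given in the sources used here, so p-values measure the spread between these libraries, which may be technical.

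TLR4 is the receptor of macrophages for LPS from gram-negative bacteria. With its partners MD-2 (Ly96) and CD14 it signals through MyD88 to NF-kB, which drives cytokine genes such as Tnf, Il6 and Il1b, and through TRIF (Ticam1) to IRF3, which drives interferon-beta. Interferon-beta then acts back on the macrophage through its own receptor and switches on the interferon-stimulated genes, so that LPS-treated wild-type macrophages are known for a strong rise of both gene groups within hours.

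Over the 43131 genes, the LPS- tlr4f/f columns held 48380952, 56445268 and 44096115 counts, and the LPS+ tlr4f/f columns held 39955601, 33577087 and 48504453. The LPS- tlr4f/f columns varied far more among themselves: the biological coefficient of variation, which is the spread of a gene between libraries beyond counting error as a percent of its level, was 44.2% against 8.74% in the LPS+ tlr4f/f columns. Pearson's r across genes of log2 CPM (counts scaled to the library total) was 0.925 to 0.966 within the first group and 0.989 to 0.991 within the second, and genes are not independent replicates. Between the groups it was 0.936 to 0.971, so replicate 3 of the LPS- tlr4f/f columns was no closer to its own group than replicate 2 of that group was to the LPS+ tlr4f/f columns.

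The targeted gene and the gene that carries Cre did not sort by the genotype of the headings. Tlr4 (chromosome 4, 66827551 to 66846581, GRCm38) had 4486, 9136 and 6449 counts in the LPS- tlr4f/f columns and 1484, 1086 and 1412 in the LPS+ tlr4f/f columns. The groups did not overlap, and Tlr4 was lower in the LPS+ tlr4f/f columns by a log2 fold change of -2.02 ± 0.25 (SE), with an adjusted p of 0.0402 in edgeR's quasi-likelihood test. Tlr4 had 4367, 3041 and 3739 counts in the LPS- tlr4f/f-lysM-cre columns and 1191, 891 and 1117 in the LPS+ tlr4f/f-lysM-cre columns. The counts cover the whole transcript, so reads of the exon between the loxP sites and of the other exons cannot be told apart.

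Lyz2 (chromosome 10, 117277541 to 117282272) encodes lysozyme M, an abundant macrophage enzyme, and lysM-cre is an insertion into this gene that interrupts it. It had 383956, 591201 and 1244818 counts in the LPS- tlr4f/f columns and 494, 560 and 623 in the LPS+ tlr4f/f columns. It was lower in the latter by a log2 fold change of -10.09 ± 0.70 (adjusted p = 0.0224). In the LPS- tlr4f/f-lysM-cre columns it had 221787, 303431 and 235201 counts, and in the LPS+ tlr4f/f-lysM-cre columns 3272, 2127 and 2369. Its near-identical neighbour Lyz1 had 244, 490 and 1455 counts against 1276, 1273 and 1813 (log2 fold change 1.24 ± 0.65, adjusted p = 0.293), and reads of Lyz1 and Lyz2 may have been split between them in counting. The genes on either side of the lysozyme pair, Yeats4 and Cpsf6, had log2 fold changes of 0.50 and 0.34 with adjusted p of 0.0649 and 0.0933.

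The comparison therefore has 2 readings. As headed, it sets tlr4f/f BMDMs treated with LPS against untreated tlr4f/f BMDMs and asks what LPS does. If the heading LPS+ tlr4f/f is exchanged with the heading LPS- tlr4f/f-lysM-cre, the LPS+ tlr4f/f columns are untreated tlr4f/f-lysM-cre BMDMs. The same values then set resting tlr4f/f-lysM-cre BMDMs against resting tlr4f/f BMDMs. In that reading the deletion of tlr4, the presence of Cre and the interruption of Lyz2 cannot be told apart. No group of the series carries lysM-cre without the loxP sites. The fit and its values are the same in both readings, and only the name of the second group differs. Groups are called by their headings throughout, as LPS+ tlr4f/f columns and so on, and a column is a library.

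**Figure D1:**
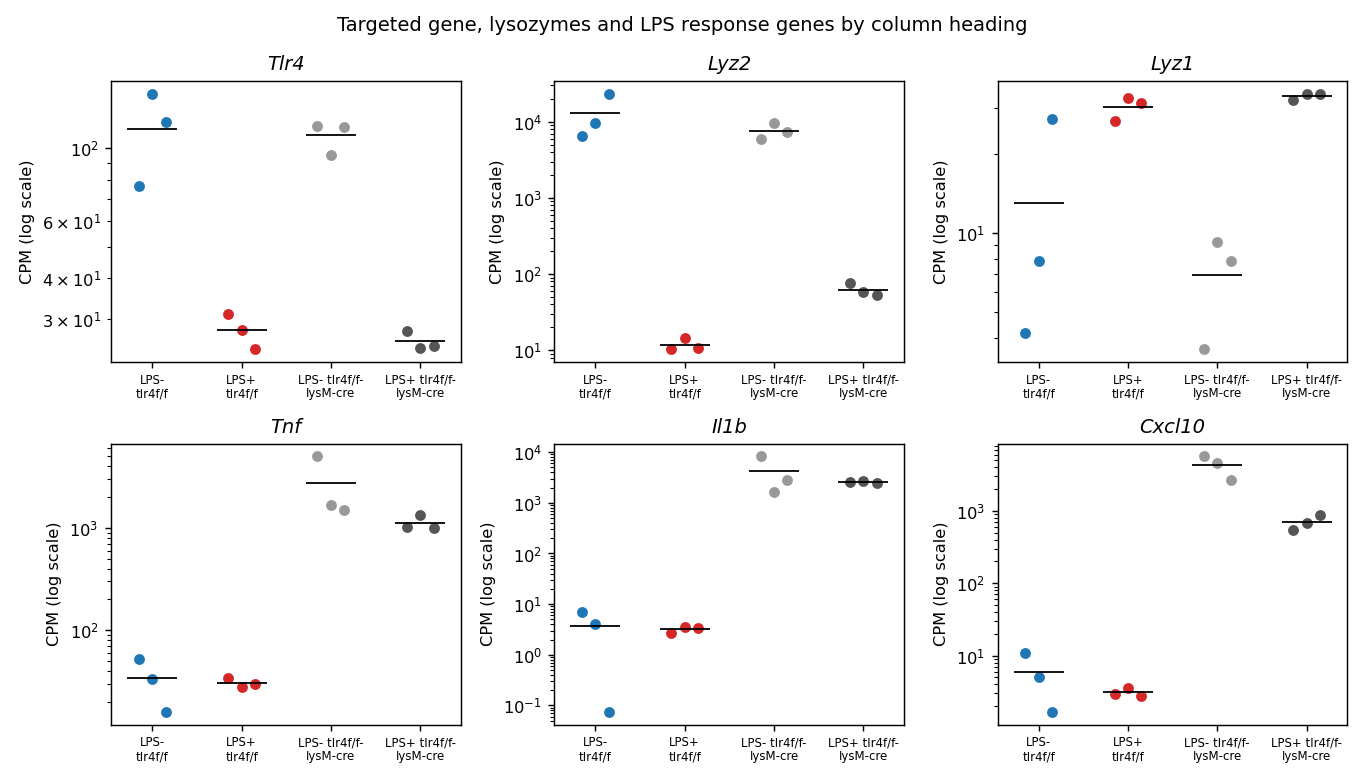
CPM on a log scale of Tlr4, Lyz2, Lyz1, Tnf, Il1b and Cxcl10 in the 12 libraries by column heading, with 1 point per library and a bar at the mean of each group of 3. Tlr4 and Lyz2 were low in both groups headed LPS+, and Tnf, Il1b and Cxcl10 were high in both groups headed tlr4f/f-lysM-cre and low in both groups headed tlr4f/f.

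None of the genes named here for the response to LPS was called, and their counts differed widely between genes and libraries. Tnf, the early inflammatory cytokine, had 3036, 2089 and 850 counts in the LPS- tlr4f/f columns and 1631, 1091 and 1715 in the LPS+ tlr4f/f columns (log2 fold change -0.13 ± 0.40, adjusted p = 0.875). In the LPS- tlr4f/f-lysM-cre columns it had 186059, 53626 and 47789 counts and in the LPS+ tlr4f/f-lysM-cre columns 44485, 48038 and 44654. The groups headed tlr4f/f overlapped, and every tlr4f/f-lysM-cre column was above all of them.

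Il1b, the precursor of interleukin-1 beta, had 405, 256 and 4 counts in the LPS- tlr4f/f columns and 128, 140 and 195 in the LPS+ tlr4f/f columns, against at least 52432 in every tlr4f/f-lysM-cre column. Il6 had 69, 13 and 0 counts against 6, 13 and 10. Cxcl10, a chemokine that interferon also induces, had 634, 314 and 89 counts against 140, 138 and 161. Replicate 3 of the LPS- tlr4f/f columns held the lowest count of its group for each of these genes. The log2 fold changes were -0.19 ± 1.13 for Il1b, -1.14 ± 1.34 for Il6 and -0.91 ± 0.63 for Cxcl10, with adjusted p of 0.935, 0.641 and 0.416.

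Nos2 makes nitric oxide, Acod1 makes itaconate and Ptgs2 makes prostaglandin precursors, and all 3 are classical products of LPS-treated macrophages. Their log2 fold changes were -1.19 ± 1.13, -1.20 ± 0.71 and -1.14 ± 1.14, with adjusted p of 0.559, 0.348 and 0.575. The T cell attractant Ccl5 had 8008, 17556 and 198 counts in the LPS- tlr4f/f columns and 390, 319 and 280 in the LPS+ tlr4f/f columns (log2 fold change -4.30 ± 1.34, adjusted p = 0.123). Ifit1, an antiviral interferon-stimulated gene, had 8662, 3939 and 2586 counts against 1104, 848 and 1217, with no overlap between the groups (log2 fold change -1.96 ± 0.43, adjusted p = 0.0718). Neither Il1b nor any of the 8 other LPS response genes passed the test in either direction. Of the 8, 2 had an unadjusted p under 0.05 (24.7% of all genes tested), and DESeq2 called 2 (15.6% of all genes). Limma voom called 1, Ifit1, lower, against 1.99% of all genes.

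Across the transcriptome, 187 of 14701 genes tested had an adjusted p under 0.05 in edgeR's quasi-likelihood test (1.27% of the genes), 88 of them higher (0.599%) and 99 lower (0.673%) in the LPS+ tlr4f/f columns. The calls lay close to the threshold, with adjusted p between 0.0224 and 0.04996, and the absolute log2 fold change of the called genes had a median of 0.99. No gene (0.0%) met the study's definition of a DEG, a fold change over 2 with an adjusted p under 0.01, whereas 3624 genes had an unadjusted p under 0.05 and DESeq2 gave 464 DEGs. The calls rested on all 3 LPS+ tlr4f/f columns: without replicate 1, 2 or 3 of that group no gene had an adjusted p under 0.05, and 2176, 2274 and 2204 genes had an unadjusted p under 0.05. Without replicate 1, 2 or 3 of the LPS- tlr4f/f columns there were 87, 1022 and 2161 calls. These held 57, 187 and 187 of the 187 genes. Summing the transcripts of a gene left 43 of the 187 calls. Of the 44 called genes named here it ended the call of 33, with adjusted p of 0.0520 to 0.0746, among them Tlr4, C3, Usp18, Nfkbiz, Tgm2 and Kif23 and the called interferon-stimulated genes other than Oas1g. The statements below that a gene rose or fell refer to the fit of all 6 libraries and share this limit.

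**Figure D2:**
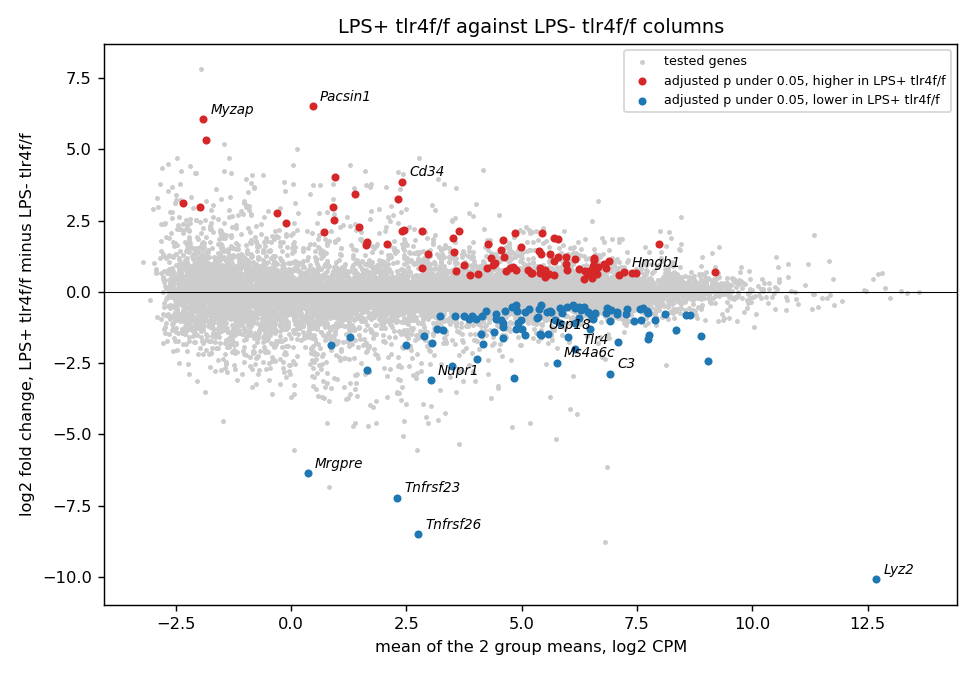
Log2 fold change of each of 14701 tested genes (LPS+ tlr4f/f minus LPS- tlr4f/f columns) against the log2 of its mean CPM. The 88 genes called higher are red and the 99 called lower blue, and Lyz2 at -10.09 is the lowest point.

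The interferon-stimulated genes were lower as a group in the LPS+ tlr4f/f columns. All 40 members tested of 41 listed had a negative log2 fold change, with a median of -1.09 against -0.03 over all genes tested, where 7866 of 14701 were negative. Of the 40, 9 fell and 0 rose at an adjusted p under 0.05 (0.673% of all genes fell), and in 33 of 40 the 3 LPS+ tlr4f/f columns lay below all 3 headed LPS- tlr4f/f, as did 18.8% of all genes. DESeq2 called 34 of 40 lower, against 7.99% of all genes. The 9 genes that fell were Oas1g, Usp18, Slfn5, Oas1a, Isg20, Ifit3b, Rtp4, Slfn8 and Xaf1.

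Interferon-stimulated genes are switched on through a promoter element that holds a GAAA repeat. A motif of GAAA, any 2 bases and GAAA again was searched on both strands in the 250 bases before the start of each gene in the promoters of RefSeq (GRCm38.p6, the promoter listed first for each gene, which can belong to a start inside the span of the gene). It stood in 5 of 7 called interferon-stimulated genes with a promoter in that table, in 15 of 32 of the whole list (46.9%), in 2.79% of the 10263 genes tested that have a promoter there and in 3.04% of all 27025 promoters. It stood in 9.09% of 77 promoters of genes called lower and in 2.94% of 68 of genes called higher. The 90 bases around the motif are shown for these 5 genes because they are the called interferon-stimulated genes in which the motif was found, with the motif or its reverse complement in capitals.
Oas1g (chr5:120887614-120887703, minus strand): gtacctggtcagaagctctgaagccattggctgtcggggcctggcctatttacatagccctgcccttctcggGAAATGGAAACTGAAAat
Oas1a (chr5:120907526-120907615, minus strand): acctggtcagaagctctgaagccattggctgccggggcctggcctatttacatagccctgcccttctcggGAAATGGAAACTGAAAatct
Ifit3b (chr19:34607746-34607835, plus strand): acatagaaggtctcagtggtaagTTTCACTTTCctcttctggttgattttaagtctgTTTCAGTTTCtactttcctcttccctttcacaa
Slfn5 (chr11:82951907-82951996, plus strand): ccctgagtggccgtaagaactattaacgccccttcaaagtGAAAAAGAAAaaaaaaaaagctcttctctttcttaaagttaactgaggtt
Slfn8 (chr11:83020811-83020900, minus strand): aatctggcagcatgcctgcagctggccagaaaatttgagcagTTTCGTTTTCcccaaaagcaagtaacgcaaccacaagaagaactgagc
Oas1g, Oas1a and Ifit3b each hold 2 matches, which overlap in the Oas1 genes and end 3 and 5 bases before the start. The start that the table gives lies 753 bases inside the annotated span of Slfn5, 427 inside that of Ifit3b and 19 inside that of Oas1a, so the stretches of Slfn5 and Ifit3b are within these genes, downstream of their outermost start. Oas1g and Oas1a are near-identical copies on chromosome 5, so their counts may share reads. A match is a description of these letters and does not show that a factor binds there.

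Oas1g and Oas1a encode sensors of double-stranded RNA that activate RNase L. Oas1g had 2793, 2524 and 2050 counts in the LPS- tlr4f/f columns and 891, 627 and 880 in the LPS+ tlr4f/f columns (log2 fold change -1.32 ± 0.13, adjusted p = 0.0253). Usp18, the protease that removes ISG15 from proteins and dampens interferon signalling, had 4368, 2989 and 3653 counts against 1095, 920 and 1158 (log2 fold change -1.50 ± 0.18, adjusted p = 0.0402). Every library of the first group was above every library of the second for both genes.

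Ifit3b, a member of the IFIT family of antiviral RNA-binding proteins, had the largest fall of the 9, with 1788, 710 and 839 counts against 154, 130 and 157 (log2 fold change -2.62 ± 0.39, adjusted p = 0.0487). Slfn5 had 20932, 19943 and 19463 counts against 10311, 7958 and 10674 (-0.76 ± 0.11, adjusted p = 0.0474), and Oas1a had 7997, 8109 and 5499 against 3098, 2546 and 3385 (-0.95 ± 0.13, adjusted p = 0.0474). The exonuclease Isg20, the transporter chaperone Rtp4, the Schlafen gene Slfn8 and the pro-apoptotic gene Xaf1 fell with log2 fold changes of -1.87, -0.78, -1.09 and -1.29. The 31 other members tested did not pass, Bst2 among them (-1.15 ± 0.22, adjusted p = 0.0579), which tethers virus particles to the cell.

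In the other 2 groups the list was at a higher level. All 40 members were higher in each of the 6 tlr4f/f-lysM-cre columns than in any LPS+ tlr4f/f column. The summed level of the list was 5527, 5099 and 3790 CPM in the LPS- tlr4f/f columns and 2733, 2725 and 2277 CPM in the LPS+ tlr4f/f columns. It was at least 44580 CPM in the LPS- tlr4f/f-lysM-cre columns and at least 17994 CPM in the LPS+ tlr4f/f-lysM-cre columns. These levels are given without a test.

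Of 13 interferon-inducible GTPases, which attack the vacuoles of intracellular microbes, 12 had a negative log2 fold change, with a median of -0.96. In edgeR 1 fell (0.673% of all genes fell): Gbp9, with 3744, 2640 and 2320 counts against 956, 623 and 929 (-1.50 ± 0.20, adjusted p = 0.0452). An unadjusted p under 0.05 was reached by 8 of the 13 (24.7% of all genes), and DESeq2 called 7 lower (7.99% of all genes). Of the 17 IRF and STAT factors, the transcription factors of the pathway, 12 were negative with a median of -0.50, and 0 passed the test. Of the 17, 10 had an unadjusted p under 0.05, as did 24.7% of all genes, and DESeq2 called 1 higher and 7 lower, against 7.62% and 7.99% of all genes. Stat3 had a log2 fold change of -0.45 ± 0.08 (adjusted p = 0.0558), with no overlap between the groups. Irf7, which amplifies interferon production, had 45743, 33949 and 5561 counts against 4556, 3550 and 3102 (-2.56 ± 0.72, adjusted p = 0.105), and Irf8, a lineage factor of monocytes, had a log2 fold change of -0.91 ± 0.39 (adjusted p = 0.215).

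Of the 18 genes tested for MHC class I and the immunoproteasome, which present peptides to CD8+ T cells, 16 were negative, with a median of -0.57, and 0 passed the test in edgeR while 9 had an unadjusted p under 0.05 (24.7% of all genes) and DESeq2 called 9 lower (7.99% of all genes). The class I heavy chain H2-D1 had 184999, 179326 and 165740 counts against 92245, 82004 and 112360 (-0.59 ± 0.12, adjusted p = 0.0677), and the light chain B2m had a log2 fold change of -0.25 ± 0.19 (adjusted p = 0.46). For MHC class II and co-stimulators the median was -0.56 with 0 of 15 called. An unadjusted p under 0.05 was reached by 1 of the 15, and DESeq2 called 1, against 24.7% and 15.6% of all genes. The median turned to 0.19 without replicate 3 of the LPS- tlr4f/f columns. Cd74, the class II chaperone, had 3093, 19142 and 47113 counts against 18004, 12679 and 6991 (-0.56 ± 0.93, adjusted p = 0.745), and Cd274, which encodes PD-L1, had a log2 fold change of 0.32 ± 0.51 (adjusted p = 0.74).

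**Figure D3:**
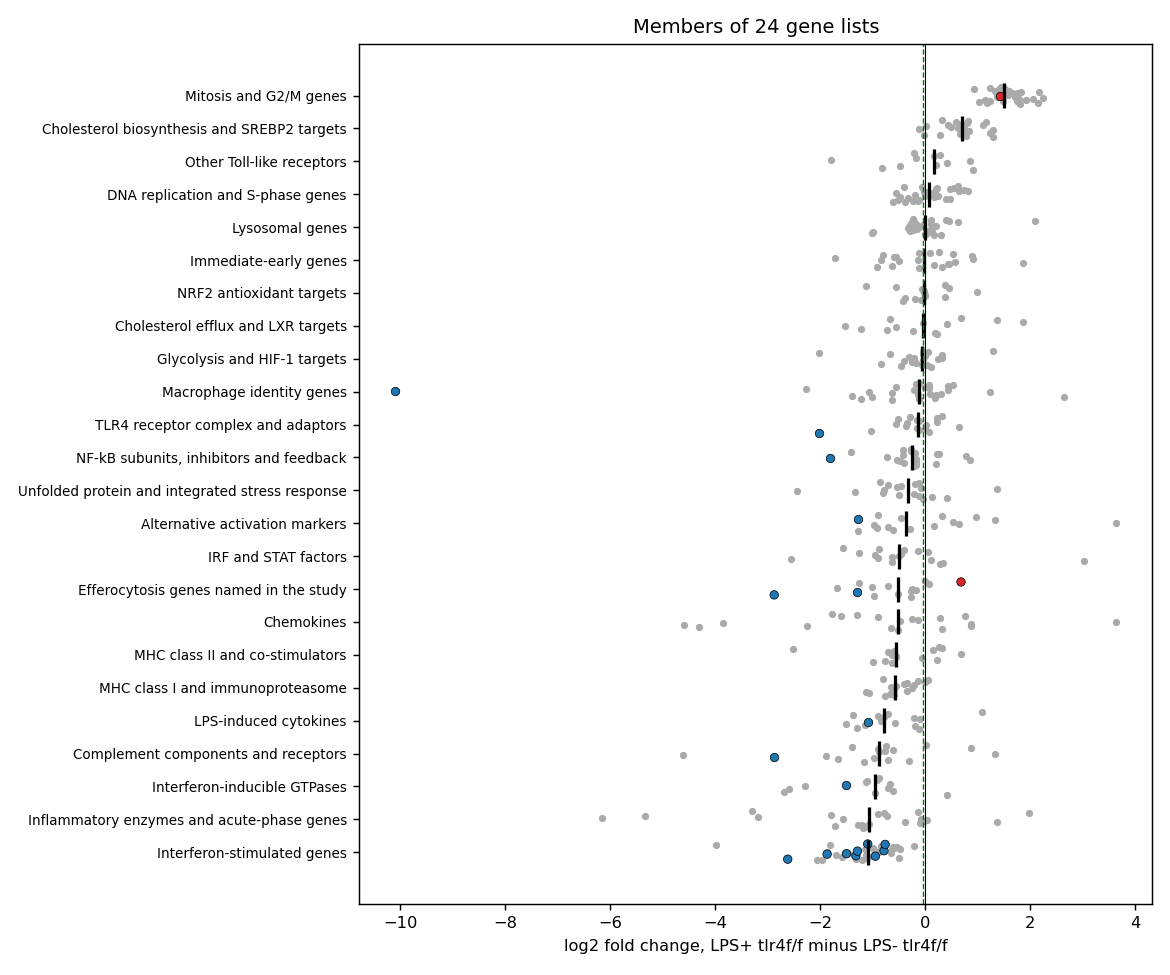
Log2 fold changes (libraries headed LPS+ tlr4f/f minus LPS- tlr4f/f) of the tested members of 24 gene lists, with 1 point per gene, called genes in blue (lower) or red (higher), a black bar at the median of each list and a dashed line at the median of all genes tested, -0.03. The list of interferon-stimulated genes has the lowest median, -1.09, and the mitosis list the highest, 1.50.

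In the list of the receptor complex and its adaptors, Tlr4 was the 1 gene called in edgeR of 18 tested (1.27% of all genes were called), and the median was -0.14. An unadjusted p under 0.05 was reached by 8 of the 18 (24.7% of all genes). DESeq2 called 1 of the 18 higher and 5 lower, against 7.62% and 7.99% of all genes. Cd14, the co-receptor that hands LPS to TLR4, had 70379, 52627 and 66903 counts against 25591, 21574 and 28656 (-1.04 ± 0.18, adjusted p = 0.0514), and it is named after its values were seen. Of 11 genes of the other Toll-like receptors 0 passed, with a median of 0.16. An unadjusted p under 0.05 was reached by 2 of the 11, and DESeq2 called 2, against 24.7% and 15.6% of all genes. Unc93b1, which carries the nucleic acid-sensing receptors to endosomes, had a log2 fold change of -0.22 ± 0.14 (adjusted p = 0.38), and Cd180, a TLR4-like regulator, of 0.16 ± 0.18 (adjusted p = 0.609).

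Among 20 NF-kB subunits, inhibitors and feedback genes 15 were negative, with a median of -0.24, and 1 fell in edgeR (0.673% of all genes fell). This was Nfkbiz, an inducible nuclear cofactor of NF-kB, with 1577, 1265 and 1987 counts in the LPS- tlr4f/f columns and 418, 287 and 431 in the LPS+ tlr4f/f columns (-1.82 ± 0.23, adjusted p = 0.043). An unadjusted p under 0.05 was reached by 9 of the 20 (24.7% of all genes). DESeq2 called 1 of the 20 higher and 5 lower, against 7.62% and 7.99% of all genes. Among 15 LPS-induced cytokines 14 were negative, with a median of -0.78, and 1 fell in edgeR (0.673% of all genes fell). This was Ebi3, a subunit shared by interleukins of the IL-12 family, with 2319, 1789 and 1662 counts against 723, 656 and 819 (-1.09 ± 0.15, adjusted p = 0.0474). An unadjusted p under 0.05 was reached by 4 of the 15 cytokines (24.7% of all genes). DESeq2 called 1 of the 15 higher and 3 lower, against 7.62% and 7.99% of all genes. The summed level of the cytokine list overlapped between the groups, at 333, 410 and 151 CPM against 290.5, 291 and 288 CPM.

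Chemokines, inflammatory enzymes and immediate-early genes had no call in edgeR. Of 19 chemokines 13 were negative (median -0.51, turning to 0.48 in limma voom). So were 20 of 23 inflammatory enzymes and acute-phase genes (median -1.07) and 11 of 22 immediate-early genes (median -0.02). In these lists 4, 3 and 6 genes had an unadjusted p under 0.05, against 24.7% of all genes, and DESeq2 called 1, 0 and 2 higher and 3, 3 and 1 lower, against 7.62% and 7.99% of all genes. Ccl2, the monocyte attractant, had 5031, 16796 and 35 counts against 4749, 3036 and 4007 (-0.51 ± 1.42, adjusted p = 0.855). Replicate 3 of the LPS- tlr4f/f columns was at the bottom here too, and its summed chemokine level was 686 CPM against 1551 and 2885 CPM in the other libraries of its group. The log2 fold changes of the most abundant members were 0.87 ± 0.37 for Ccl9 and 0.87 ± 1.01 for Ccl6, which are constitutive macrophage chemokines, 1.98 ± 0.83 for the elastase Mmp12, -0.08 ± 0.47 for the heme oxygenase Hmox1, 0.90 ± 0.35 for Atf3 and 0.45 ± 0.20 for Jund, and none of these 6 passed.

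C3, the central complement protein, was the complement gene that fell in edgeR (0.673% of all genes fell). It had 19705, 10156 and 7529 counts in the LPS- tlr4f/f columns and 1488, 1112 and 1536 in the LPS+ tlr4f/f columns (log2 fold change -2.88 ± 0.37, adjusted p = 0.0442). Among 17 complement components and receptors 14 were negative (median -0.88), and 9 had an unadjusted p under 0.05 (24.7% of all genes). DESeq2 called 1 of the 17 higher and 5 lower, against 7.62% and 7.99% of all genes. Of 15 tested genes that the study names for efferocytosis, the uptake of dying cells, 13 were negative with a median of -0.51. The study chose that list on these same libraries, so its direction is not independent evidence. C3 and Tgm2 of this list fell in edgeR and Hmgb1 rose, against 0.673% and 0.599% of all genes. DESeq2 called 5 of the 15 lower and 1 higher, against 7.99% and 7.62% of all genes. Tgm2, transglutaminase 2, had 8708, 8191 and 5327 counts against 2331, 1983 and 3101 (-1.29 ± 0.16, adjusted p = 0.0426). Hmgb1, a chromatin protein and danger signal, had 116 ± 6.73 CPM (SD, n = 3) against 183 ± 1.66 CPM (0.68 ± 0.09, adjusted p = 0.043).

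The phagocytic receptor Trem2 had 32196, 40583 and 37243 counts against 29096, 27707 and 36546, and after scaling the groups overlapped (0.06 ± 0.13, adjusted p = 0.793). The inhibitory receptor Cd300lf had 612, 764 and 208 counts against 143, 153 and 231 (-1.27 ± 0.43, adjusted p = 0.144). Tgm2 was also the call in edgeR among 16 alternative activation markers (1.27% of all genes were called). An unadjusted p under 0.05 was reached by 7 of the 16 (24.7% of all genes). DESeq2 called 4 of them higher and 2 lower, against 7.62% and 7.99% of all genes. The median of that list was -0.37. It turned to 0.57 in limma voom and to 0.22 without replicate 1 of the LPS- tlr4f/f columns. Mrc1, the mannose receptor, had 4358, 30268 and 806 counts in the LPS- tlr4f/f columns against 5818, 5717 and 5964, so the first group spanned the second (-0.61 ± 1.08, adjusted p = 0.761). Il10, the anti-inflammatory cytokine, had 161, 189 and 26 counts against 32, 31 and 42 (-1.50 ± 0.66, adjusted p = 0.223).

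Genes of cell division were higher as a group in the LPS+ tlr4f/f columns. All 36 mitosis and G2/M genes had a positive log2 fold change, with a median of 1.50, where 6835 of all 14701 were positive. In all 36 the LPS+ tlr4f/f columns lay above the LPS- tlr4f/f columns, as did 16.6% of all genes. At an adjusted p under 0.05 only Kif23 rose in edgeR (0.599% of all genes rose), while DESeq2 called 23 of 36 higher against 7.62% of all genes. Kif23, a kinesin of the spindle midzone needed for cytokinesis, had 1195, 1903 and 936 counts against 2803, 2150 and 3832 (1.42 ± 0.22, adjusted p = 0.0488).

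The summed level of the mitosis list was 1109, 1560 and 301 CPM in the LPS- tlr4f/f columns and 2744, 2593 and 3026 CPM in the LPS+ tlr4f/f columns. It was 472, 488 and 173 CPM in the LPS- tlr4f/f-lysM-cre columns and 1073, 1224 and 1511 CPM in the LPS+ tlr4f/f-lysM-cre columns, so within each genotype of the headings the group headed LPS+ was higher in every library. Of 30 DNA replication and S-phase genes 17 were positive, with a median of 0.08 and 0 calls. An unadjusted p under 0.05 was reached by 6 of the 30, and DESeq2 called 5, against 24.7% and 15.6% of all genes. Pcna, the sliding clamp, had a log2 fold change of 0.48 ± 0.25 (adjusted p = 0.285) and Mcm6, a helicase subunit, of -0.51 ± 0.12 (adjusted p = 0.0757).

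Of 24 cholesterol biosynthesis genes and SREBP2 targets, 22 were positive with a median of 0.71, and in 15 the LPS+ tlr4f/f columns lay above the LPS- tlr4f/f columns, as did 16.6% of all genes. None passed the test in edgeR, 14 had an unadjusted p under 0.05 (24.7% of all genes) and DESeq2 called 9 higher (7.62% of all genes). Srebf2, the transcription factor of the pathway, had a log2 fold change of 0.33 ± 0.14 (adjusted p = 0.225). The summed level was 855, 1413 and 905 CPM against 1625, 1622 and 1871 CPM. Cholesterol efflux and LXR targets had a median of -0.05 with 0 of 13 called. An unadjusted p under 0.05 was reached by 5 of the 13, and DESeq2 called 4, against 24.7% and 15.6% of all genes. The log2 fold changes were 0.68 ± 0.52 for Lpl (adjusted p = 0.466) and -0.55 ± 0.42 for Apoe (adjusted p = 0.459).

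**Figure D4:**
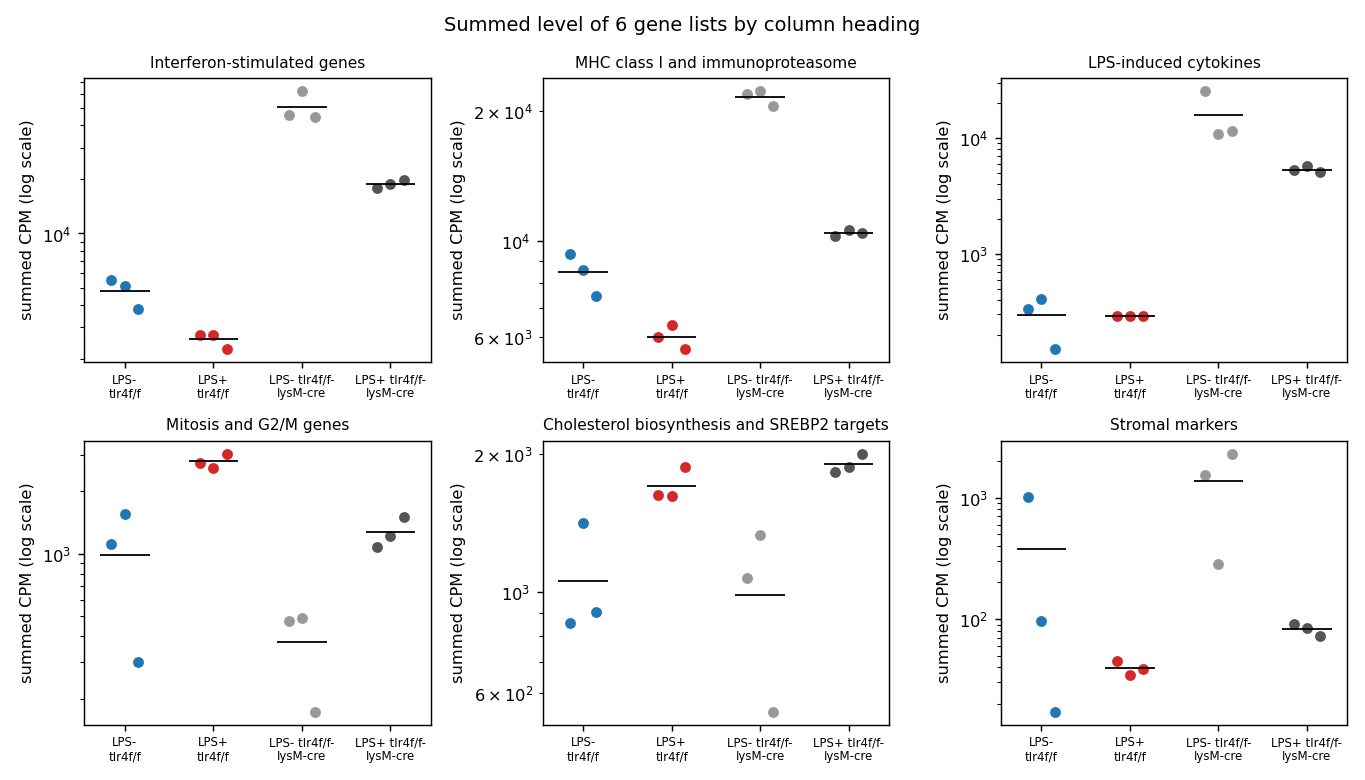
Summed CPM on a log scale of 6 gene lists in the 12 libraries by column heading, with 1 point per library and a bar at the mean of each group of 3. The LPS+ tlr4f/f columns lie below the LPS- tlr4f/f columns for interferon-stimulated and MHC class I genes and above them for the mitosis and cholesterol lists, while the cytokine and stromal sums overlap.

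Metabolic and organelle lists had no call in edgeR. The medians were -0.06 for 22 glycolysis and HIF-1 targets, -0.01 for 29 lysosomal genes, -0.03 for 16 NRF2 antioxidant targets and -0.34 for 18 genes of the unfolded protein and integrated stress response. In these lists 7, 4, 4 and 8 genes had an unadjusted p under 0.05, against 24.7% of all genes, and DESeq2 called 1, 3, 2 and 1 higher and 5, 0, 1 and 6 lower, against 7.62% and 7.99% of all genes. Their most abundant members had log2 fold changes of -0.32 ± 0.17 (Pkm), -0.40 ± 0.12 (Aldoa), 0.01 ± 0.30 (Ctsb), 0.13 ± 0.25 (Ctsd), 0.98 ± 0.39 (Prdx1), -0.04 ± 0.22 (Pgd), -0.05 ± 0.18 (Hspa5) and 0.41 ± 0.21 (Hsp90b1).

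Of 27 macrophage identity genes tested, Lyz2 alone was called in edgeR (1.27% of all genes were called), and the median was -0.11. An unadjusted p under 0.05 was reached by 7 of the 27 (24.7% of all genes). DESeq2 called 1 higher and 5 lower, against 7.62% and 7.99% of all genes. Stromal markers differed widely within a group. Their summed level over 18 genes was 1016, 96.6 and 17.2 CPM in the LPS- tlr4f/f columns and 44.9, 34.8 and 38.5 CPM in the LPS+ tlr4f/f columns. In the LPS- tlr4f/f-lysM-cre columns the stromal markers summed to 1529, 286 and 2288 CPM. In the LPS+ tlr4f/f-lysM-cre columns they summed to 91.6, 83.5 and 73.0 CPM. Their median log2 fold change was -2.89 with 0 of 17 called (4 at an unadjusted p under 0.05, against 24.7% of all genes). No stromal marker was at 0 in all 6 libraries. Col1a1 and Col1a2, the chains of type I collagen, had 20118 and 14413 counts in replicate 1 of the LPS- tlr4f/f columns and 123 and 132 in replicate 3. In bulk RNA, fewer cells of a type and less RNA per cell cannot be told apart. The part of these cells in the results was not tested. Summed levels were 30.0 to 63.0 CPM against 26.4 to 31.7 CPM for neutrophil markers, 235 to 398 against 131 to 159 CPM for dendritic cell markers, of which the interferon-stimulated gene Bst2 makes up most, and 23.4 to 36.4 against 31.4 to 41.2 CPM for replication-dependent histones. They were at most 6.02 CPM in each of the 6 libraries for B, T and NK lymphocyte, and mast cell markers. Erythroid markers summed to 0.513, 0.401 and 1.61 CPM in the LPS- tlr4f/f columns and to 2.37, 2.51 and 2.58 CPM in the LPS+ tlr4f/f columns. Of the 5 erythroid markers tested, 4 lay apart and higher in the LPS+ tlr4f/f columns (16.6% of all genes), with a median log2 fold change of 3.05. The erythroid sum was 0.161, 0.0938 and 4.36 CPM in the LPS- tlr4f/f-lysM-cre columns and 2.66, 3.53 and 2.93 CPM in the LPS+ tlr4f/f-lysM-cre columns. No gene of these lists was called, and the part of erythroid cells in the results was not tested. At 0 in all 6 libraries were 1 of 15 neutrophil, 2 of 10 erythroid, 1 of 10 T and NK lymphocyte and 4 of 9 mast cell markers.

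Among the 10 genes called higher with the largest changes, several were nearly silent in the LPS- tlr4f/f columns. Pacsin1, an endocytic adaptor best known from neurons, had 0, 4 and 1 counts there and 117, 98 and 189 in the LPS+ tlr4f/f columns, a ratio scaled to the library totals of 98.6 with a 95% exact interval of 41.9 to 305 for counting error (adjusted p = 0.0394). It had at most 9 counts in each of the 6 tlr4f/f-lysM-cre columns. Myzap had 0, 0 and 1 counts against 22, 22 and 33 (ratio 94.0, interval 16.4 to 3759, adjusted p = 0.045), and the predicted gene Gm38800 had 1, 1 and 0 against 37, 23 and 16 (ratio 46.4, interval 12.4 to 390, adjusted p = 0.0487). Hr, a nuclear corepressor, had 13, 23 and 4 counts against 200, 171 and 141 (4.04 ± 0.60, adjusted p = 0.0484). Myzap had 0, 0 and 27 counts in the LPS- tlr4f/f-lysM-cre columns and 24, 10 and 31 in the LPS+ tlr4f/f-lysM-cre columns.

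Cd34, a sialomucin of haematopoietic progenitors and endothelium, had 44, 62 and 17 counts in the LPS- tlr4f/f columns and 575, 453 and 351 in the LPS+ tlr4f/f columns (3.86 ± 0.50, adjusted p = 0.0443). It had 218, 206 and 173 counts in the LPS+ tlr4f/f-lysM-cre columns and 4, 11 and 26 in the LPS- tlr4f/f-lysM-cre columns. The C-type lectin Clec4b1 had 32, 34 and 11 counts against 152, 173 and 141 (2.96 ± 0.47, adjusted p = 0.04996). The remaining genes of the 10 were Ttn, which encodes titin (3.45 ± 0.52), the microtubule protein gene Map2 (3.27 ± 0.50), the cadherin gene Celsr1 and the calcineurin inhibitor gene Rcan2. Celsr1 had 2, 3 and 2 counts against 17, 11 and 25, a ratio of 9.24 (interval 4.19 to 24.1, adjusted p = 0.0487). Rcan2 had 4, 3 and 3 counts against 22, 13 and 33, a ratio of 8.30 (4.25 to 18.1, adjusted p = 0.0497). In the LPS- tlr4f/f-lysM-cre columns it had 1, 0 and 26. In limma voom Gm38800, Hr, Cd34, Clec4b1, Map2, Celsr1 and Rcan2 were not called (adjusted p 0.0893 to 0.233). Pacsin1, Myzap and Ttn were called there, as were 167 of all 187 genes called in edgeR. In edgeR's fit of all 12 libraries Myzap, Ttn, Celsr1 and Rcan2 were not called (adjusted p 0.0722 to 0.153), and the others of the 10 were.

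Among the 10 called lower with the largest changes, besides Lyz2, C3 and Ifit3b, were Nupr1, Ms4a6b, Ms4a6c and Runx3. Nupr1, a stress-induced chromatin protein, had 1186, 712 and 654 counts against 86, 75 and 78 (-3.10 ± 0.30, adjusted p = 0.0229). Ms4a6c had 6725, 5165 and 4214 counts against 860, 687 and 765 (-2.48 ± 0.21, adjusted p = 0.0224), and Ms4a6b had 4326, 3382 and 1236 against 324, 265 and 291 (-3.01 ± 0.44, adjusted p = 0.0487). Both belong to a family of membrane proteins of myeloid cells, are similar in sequence and may share reads. The transcription factor gene Runx3 had 279, 222 and 433 counts against 48, 26 and 43 (-2.74 ± 0.38, adjusted p = 0.0474).

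The 3 other genes of the 10, Tnfrsf26, Tnfrsf23 and Mrgpre, are neighbours on distal chromosome 7. Tnfrsf26 and Tnfrsf23, genes of the TNF receptor family, had 1039, 1226 and 162 and 953, 635 and 146 counts in the LPS- tlr4f/f columns, and 2, 1 and 2 and 3, 2 and 4 in the LPS+ tlr4f/f columns. The ratios, scaled to the library totals, were 398 (95% exact interval 170.2 to 1226) and 158 (83.0 to 346), and the adjusted p was 0.0394 for both Tnfrsf26 and Tnfrsf23. Mrgpre, an orphan receptor gene of sensory neurons, had 84, 301 and 72 counts against 0, 2 and 2, a ratio of 93.6 (36.3 to 345) with an adjusted p of 0.0487. In the tlr4f/f-lysM-cre columns, Tnfrsf26 had 225, 125 and 293 counts under LPS- and 1, 1 and 12 under LPS+.

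The window from Tspan32 to Mrgpre (chr7:143004907-143784500, GRCm38, 780 kb) was then examined, a choice made after these values were seen. All 14 genes tested in it had a negative log2 fold change. In 10 the LPS+ tlr4f/f columns lay below the LPS- tlr4f/f columns (18.8% of all genes), and 10 were below -2. Tnfrsf26, Tnfrsf23 and Mrgpre led to the choice of the window, and Tspan32 and Mrgpre bound it. These genes are counted in the numbers, which are therefore a description only. Tspan32, a tetraspanin gene, had 339, 70 and 191 counts against 4, 0 and 0 (-6.84 ± 1.20, adjusted p = 0.0536), a fitted value that depends on the prior count at so few counts. Cd81, another tetraspanin gene, had 8589, 1822 and 3309 against 393, 295 and 1429 (-2.53 ± 0.75, adjusted p = 0.112). Tnfrsf22, Osbpl5 and Slc22a18 had log2 fold changes of -2.36 ± 0.58, -2.58 ± 0.50 and -2.40 ± 0.56. Within the window, Nap1l4 (-0.08), Cars (-0.36), Tssc4 (-0.31) and Kcnq1ot1 (-0.02) changed least. For Cars the LPS+ tlr4f/f columns still lay below the LPS- tlr4f/f columns. Counting without strand cannot separate overlapping genes such as R74862 and Cd81.

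**Figure D5:**
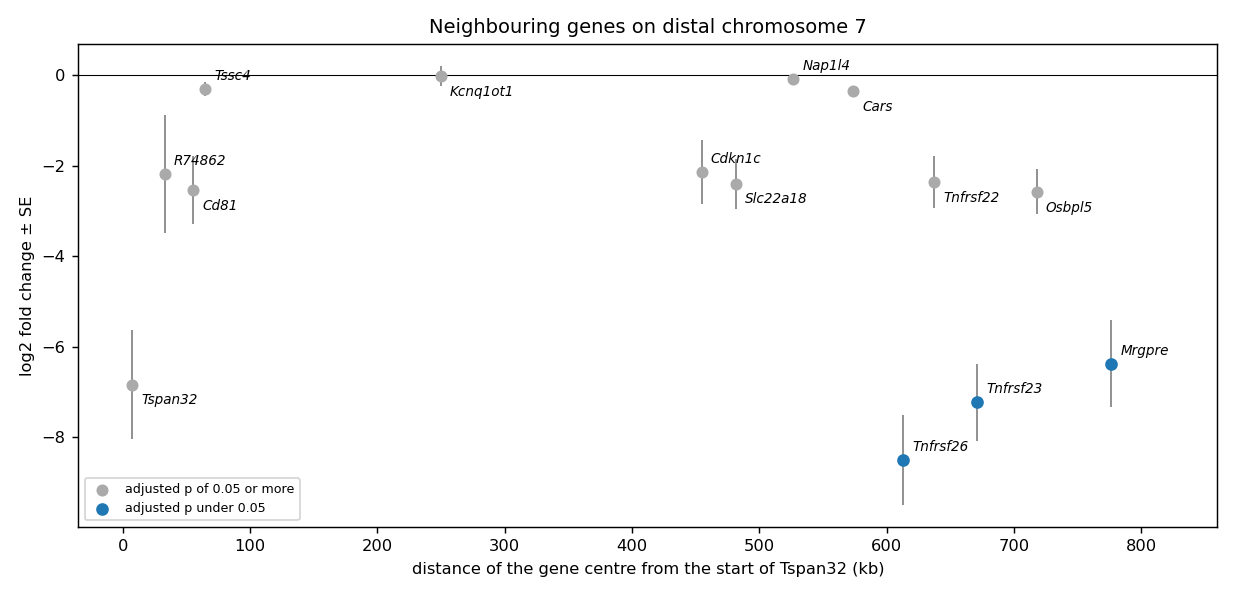
Log2 fold change ± SE (libraries headed LPS+ tlr4f/f minus LPS- tlr4f/f, 3 each) of the 14 tested genes of the window against distance from the start of Tspan32 in kb. The called genes Tnfrsf26, Tnfrsf23 and Mrgpre (blue) and the uncalled Tspan32 lie below -6, and Nap1l4, Cars, Tssc4 and Kcnq1ot1 lie near 0.

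The 6 tlr4f/f-lysM-cre columns took no part in the fit, and the called genes were looked up in them. Of the 88 genes called higher, 65 (73.9%) were also higher in every LPS+ tlr4f/f-lysM-cre column than in any LPS- tlr4f/f-lysM-cre column, against 25.5% of all genes tested, and 1 was lower in every library. Of the 99 called lower, 69 (69.7%) were lower in every LPS+ tlr4f/f-lysM-cre column, against 20.6% of all genes, and 6 were higher in every library. As headed, this sets the effect of LPS in both genotypes side by side. With the 2 headings exchanged, it sets the difference between tlr4f/f-lysM-cre and tlr4f/f BMDMs, resting and LPS-treated, side by side. Both comparisons then share tlr4 deletion, Cre and the interruption of Lyz2, which cannot be told apart.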

How the data were processed

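Total RNA of the BMDMs was sequenced as paired reads of 150 bp from fragments of about 200 bp, and the labels name both rRNA removal and polyA RNA. By the submitters' processing notes and the study's methods, the authors trimmed reads with Trimmomatic 0.36 (quality check with FastQC), used HISAT2 for alignment to mm10 and HTSeq for counting. The deposited values are raw read counts per transcript (115140 transcripts), not normalized. Reads are counted once per transcript of a gene, so the row with the highest total was kept for each of 43131 genes. Of 7596 Ensembl gene IDs, 7551 matched a symbol. Groups follow the column headings.

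Counts of the 6 libraries were tested with edgeR 4.0.16 in R 4.3.3 (filterByExpr, TMM, robust quasi-likelihood fit, Benjamini-Hochberg adjustment over 14701 genes). SE are of the log2 fold change. CPM use TMM factors over 12 libraries. Levels in the libraries not compared are given without a test. Totals of 33577087 to 48504453 and 44096115 to 56445268 counts (headed LPS+ and LPS-) limit precision little except for genes with few counts, for which exact binomial intervals (95%) cover counting error only, since reads carry no molecular identifiers. An exact permutation test of 3 against 3 libraries was not used, as it cannot reach the threshold.

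The comparison and the gene lists were chosen with earlier results of these data known. The lists come from general knowledge, and 1 from the study. Named genes are Tlr4, Lyz2, Lyz1, Il1b, 8 LPS response genes, genes the study names, the 10 largest changes in each direction among called genes (groups apart, and 10 or more counts throughout the higher group), and for each list up to 4 called genes, or the 2 most abundant. Members of marker lists are given by their sums, and some genes are not reported here. The edgeR test was checked on simulated data in which both groups had the same spread. The groups here differ in spread, so the check does not cover that feature. Alternatives were DESeq2 1.42.0, limma 3.58.1 (voom with quality weights shared within each group), RLE factors, other filters and all 12 libraries in 1 fit. Further alternatives were the replicate number as a block, no robust estimation, the sum over transcripts, and each library left out. Figures used matplotlib 3.10.9.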

Additional observations from a re-analysis of the deposited data

How the results depend on the processing

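The number of called genes depended strongly on the fit. Against 187 genes with an adjusted p under 0.05 and 0 DEGs in edgeR, DESeq2 gave 2295 and 464, and limma voom 563 and 16. No filter beyond 1 count gave 297 and 34, and all 12 libraries in 1 fit 724 and 74. The sum over transcripts gave 43 called genes, and leaving out 1 library gave 0 to 2161 called genes and 0 to 184 DEGs, with 0 called genes without any of the LPS+ tlr4f/f columns. The cause was not tested. RLE factors (184), 10 counts in every library (274) and no robust estimation (181) stayed within 1.5 times of the reported count and gave 0 DEGs. All 187 genes were also called by DESeq2, and 167 of them by limma voom. With the replicate number as a block, 0 genes were called, with 3033 at an unadjusted p under 0.05. The numbers were not taken to pair the libraries, since the deviations of same-numbered libraries correlated at r = -0.01, 0.18 and 0.03.

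In all 15 alternatives the median of the interferon-stimulated genes was between -1.22 and -0.95, and that of the mitosis list between 1.10 and 2.01. The median changed sign under at least 1 alternative in 10 of the 24 lists. Alternative activation markers turned to a median of 0.57 in limma voom and 0.58 with the block. Without replicate 1 of the LPS- tlr4f/f columns their median was 0.22. The ranges of the other medians that turned were -1.05 to 0.48 (chemokines), -1.07 to 0.19 (MHC class II), -0.34 to 0.49 (NRF2 targets), -0.20 to 0.22 (immediate-early genes), -0.13 to 0.27 (S-phase), -0.076 to 0.35 (other Toll-like receptors), -0.16 to 0.091 (lysosome), -0.15 to 0.021 (macrophage identity) and -0.14 to 0.026 (LXR targets). No called gene named in the text changed direction in any of the 15 alternatives that gave it a value. Genes not called did. The quality weights of limma voom were shared within each group and set no library of a group against another. In limma voom, log2 fold changes became 1.17 (Il1b), 0.027 (Tnf), 0.53 (Il6), 0.013 (Nos2), 0.12 (Ptgs2), 1.63 (Ccl2), 0.62 (Mrc1), 0.15 (Hmox1) and 0.048 (Cd74). With the block they became 0.63 (Il1b), 0.026 (Tnf), 0.033 (Il6), 0.88 (Ccl2), 0.62 (Mrc1), 0.13 (Hmox1), 0.058 (Cd74) and 0.0030 (Pgd), and with all 12 libraries -0.012 (Ctsb). Leaving out 1 library gave ranges of -0.77 to 0.64 (Il1b), -0.47 to 0.34 (Tnf), -1.72 to 0.97 (Il6), -1.71 to 0.24 (Ptgs2), -1.09 to 0.93 (Ccl2), -1.16 to 1.48 (Mrc1), -0.017 to 0.13 (Trem2), -0.48 to 0.25 (Hmox1), -1.08 to 0.63 (Cd74), -0.066 to 1.08 (Cd274), -0.83 to 0.0032 (Apoe), -0.16 to 0.40 (Ctsb), -0.015 to 0.42 (Ctsd), -0.18 to 0.24 (Pgd) and -0.23 to 0.056 (Hspa5). The biological coefficient of variation in the LPS- tlr4f/f columns was 44.2%, and its part in these ranges was not tested.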

Other observations

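Of the 187 called genes, 169 stood on none of the gene lists, and the following were picked from them after their values were seen. Gas6, the ligand that bridges dying cells to the TAM receptors, had 14393, 20653 and 20909 counts in the LPS- tlr4f/f columns and 5261, 4855 and 5798 in the LPS+ tlr4f/f columns (log2 fold change -1.51 ± 0.19, adjusted p = 0.0402). Siglec1, a sialic acid receptor of macrophages that interferon also raises, had 81824, 42722 and 30962 against 9089, 6606 and 7771 (-2.41 ± 0.38, adjusted p = 0.04996). Igfbp4, which binds insulin-like growth factors, had 13350, 9710 and 13354 against 2677, 2390 and 3798 (-1.77 ± 0.19, adjusted p = 0.0284).

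Fads2 and Elovl5, a desaturase and an elongase of polyunsaturated fatty acid synthesis, were both higher in the LPS+ tlr4f/f columns, by log2 fold changes of 1.88 ± 0.29 and 0.64 ± 0.10 (adjusted p = 0.0487 and 0.04996). Tsc22d1 and Klf9, transcription regulators known to respond to glucocorticoids or TGF-beta, rose by 1.84 ± 0.12 and 1.66 ± 0.16 (adjusted p = 0.0224 and 0.0229).

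Tnnc1, which encodes cardiac troponin C, and Hspb7, a small heat shock protein gene, were called higher, as was Ttn. Tnnc1 had 47, 68 and 53 counts in the LPS- tlr4f/f columns, 230, 164 and 272 in the LPS+ tlr4f/f columns and 310, 217 and 255 in the LPS+ tlr4f/f-lysM-cre columns. In the LPS- tlr4f/f-lysM-cre columns it had 19, 6 and 261, so replicate 3 of that group stood with the columns headed LPS+. Ttn had 15, 5 and 241 counts and Hspb7 8, 9 and 101 in the same 3 libraries.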
